A study of Mus musculus with 9 samples.

Results

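Ogt and Mgea5 are the genes of the enzyme pair that adds and removes O-linked N-acetylglucosamine (O-GlcNAc) on nuclear and cytoplasmic proteins. All introns that the authors' deposited table lists under either symbol were taken, 13 of 22228 introns, with 7 in Ogt and 6 in Mgea5. The cells were v6.5, a line of mouse embryonic stem cells grown on gelatin without feeder cells named in the labels. The drug was KH-CB19, which inhibits Clk, a group of kinases that phosphorylate splicing factors of the SR family, and control cells got as much of its solvent, dimethyl sulfoxide (DMSO). Cells were collected at once (0 h) or after 2 h, with 2 libraries of polyadenylated RNA in each of the 4 groups, described as independent biological replicates, and all groups thus carried the solvent. A further untreated library had no column among the values and was not analysed here.

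O-GlcNAc is put on serine and threonine by a single transferase, the product of Ogt, which uses UDP-GlcNAc as donor, and is taken off by O-GlcNAcase, the product of Mgea5 (now also named Oga). Because UDP-GlcNAc is made from glucose, glutamine, acetyl-CoA and UTP, the modification is known as a readout of nutrient state, and cells keep its level steady by tuning the amounts of both enzymes. Ogt is essential in mouse embryonic stem cells. Detained introns are introns that stay in otherwise spliced, polyadenylated RNA that is kept in the nucleus, and a transcript that holds one makes no protein until the intron is removed.

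The authors classed 3 of the 13 introns as detained, against 15.5% of all 22228: intron 6 of Ogt and introns 10 and 11 of Mgea5. Intron numbers here are those of the deposited table. All 13 introns matched a single intron of the same gene and length in the GENCODE M21 annotation (build GRCm38), where each lay between coding exons. Intron 6 of Ogt was the 4th of 21 introns of the transcript Ogt-201, and introns 10 and 11 of Mgea5 were the 10th and 11th of 15 introns of Mgea5-201. On mm9, the build of the deposited table, intron 6 of Ogt spans chromosome X from 98847548 to 98850962 (3415 bp, plus strand). Introns 10 and 11 of Mgea5 lie on the minus strand of chromosome 19, from 45836761 to 45839939 (3179 bp) and from 45835699 to 45836674 (976 bp). They flank the same 86-base exon. The other listed introns of Ogt are intron 2 (98835662 to 98838314), intron 5 (98839530 to 98847478), intron 7 (98851080 to 98856590), intron 11 (98860084 to 98862616), intron 14 (98863499 to 98865095) and intron 16 (98865460 to 98867786). Those of Mgea5 are intron 3 (45851508 to 45853076), intron 8 (45842498 to 45844540), intron 13 (45832925 to 45835593) and intron 15 (45829257 to 45832394).

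The ends of the detained introns are shown because they are the sites that splicing has to join. No genome of the build mm9 was used. The sequences were read instead from GENCODE M21 transcripts that run into an intron (build GRCm38), which gave both ends of intron 6 of Ogt, and the 3′ end of intron 10 of Mgea5. The same was possible for the 3′ ends of introns 3 and 13 of Mgea5, which were not classed as detained. Capitals mark exon bases, and small letters intron bases, 5′ to 3′.
Ogt intron 6, 5′ end (Ogt-204, chrX:101652194-101652253, plus strand): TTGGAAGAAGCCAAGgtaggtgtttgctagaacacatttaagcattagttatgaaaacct
Ogt intron 6, 3′ end (Ogt-203, chrX:101655564-101655638, plus strand): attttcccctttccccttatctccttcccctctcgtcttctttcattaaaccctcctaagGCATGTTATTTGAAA
Mgea5 intron 10, 3′ end (Mgea5-203, chr19:45762256-45762330, minus strand): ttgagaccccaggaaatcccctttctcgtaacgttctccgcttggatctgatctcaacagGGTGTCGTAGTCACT
Mgea5 intron 3, 3′ end (Mgea5-205, chr19:45777003-45777077, minus strand): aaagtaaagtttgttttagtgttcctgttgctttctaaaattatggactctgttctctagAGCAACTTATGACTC
Mgea5 intron 13, 3′ end (Mgea5-204, chr19:45758420-45758494, minus strand): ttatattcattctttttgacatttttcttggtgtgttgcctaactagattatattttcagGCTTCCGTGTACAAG

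The 3′ end of intron 6 of Ogt was rich in C and T over a long stretch. Splicing factors bind a pyrimidine tract ahead of an exon, and whether they bind this stretch was not tested. In its last 60 intron bases 50 were C or T, against 36 in intron 10, 35 in intron 3 and 40 in intron 13 of Mgea5. The median was 35 (quartiles 32 and 38) over the 4306 listed introns whose last 60 bases a GENCODE transcript covers, and 17 of these, 0.395%, had at least as many as intron 6 of Ogt. Over the last 20 bases the 4 introns had 13, 11, 13 and 11, in the order intron 6 of Ogt and introns 10, 3 and 13 of Mgea5, and the median of 4602 introns was 14. The window of 60 bases was chosen after these sequences had been seen, and introns that a transcript runs into are not a random sample of introns. All 4 introns end in AG.

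In the frame of the coding sequence, reading on into intron 6 of Ogt would lead to an early stop. So would leaving out the exon between the detained introns of Mgea5, which is an unlike event. Skipping of that exon was not measured here, and no frame was read for Mgea5 RNA that keeps intron 10 or 11. Translation that ran on from the exon before intron 6 of Ogt would meet an in-frame TAG within the first 15 intron bases shown above. This stop comes after 531 of 3138 coding bases (16.9%), and how often other introns give an early stop was not counted. In Mgea5 the exon between the detained introns has a length that is not a multiple of 3. Over all 313 pairs of detained introns that share an exon, 188 (60.1%) had such a length. Leaving out the Mgea5 exon, as GENCODE transcript Mgea5-206 does, would put a TGA in frame 17 bases into the next exon, after 1984 of 2748 coding bases (72.2%). The exon left out, on the minus strand of GRCm38 chr19:45762185-45762270, is shown because both detained introns adjoin it.
Mgea5 exon between introns 10 and 11: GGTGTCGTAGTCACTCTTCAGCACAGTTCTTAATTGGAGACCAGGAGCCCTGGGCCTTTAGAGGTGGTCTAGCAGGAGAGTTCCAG

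GENCODE already holds several transcripts that start or end in these introns. In intron 6 of Ogt, 3 transcripts (Ogt-204, Ogt-206 and Ogt-207) run on from the exon before it for 2378, 669 and 686 bases and end there. A further transcript, Ogt-205, has an exon of 343 bases that lies wholly inside the intron, and Ogt-203 starts 279 bases ahead of its 3′ end. Intron 10 of Mgea5 holds the start of 1 transcript, Mgea5-203, 964 bases ahead of its 3′ end. The annotation types Mgea5-203 as protein-coding, and Ogt-204, Ogt-206 and Ogt-207 as retained introns. No annotated exon of the gene reached into intron 11, and of the 10 introns not classed as detained only introns 3 and 13 of Mgea5 had one. Of the listed introns of both genes only intron 3 of Mgea5, which is not detained, is kept whole in a transcript, Mgea5-205. Of all listed introns that matched GENCODE, 62.5% of the detained (1752 of 2802) and 42.5% of the others (6915 of 16277) had such an exon.

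Before any drug effect, in the DMSO group at 0 h, the 3 detained introns held 71.3% of the observed reads of the 13 listed introns on 19.1% of their length. The other introns of these transcripts are not among the listed ones and have no value. The values are the authors' means over 2 libraries, so no spread between replicates can stand beside them. Intervals given here are exact 95% Poisson intervals on the reads of both libraries together, and cover counting error only. Intron reads rise both with the amount of a transcript and with the share of it that keeps the intron. Reads of the annotated transcripts that start, end or lie inside an intron may also count there, and their part was not measured. In bulk RNA fewer cells of a type and less RNA per cell cannot be told apart.

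Intron 6 of Ogt had an observed mean of 623.5 reads, 183 reads per kb of intron (interval 173 to 193). The 6 other listed introns of Ogt had 3.45 to 32.0 reads per kb, with a median of 4.91, so that intron 6 was 37.2-fold above their median and 5.70-fold above the highest. It took 79.0% of the observed reads of the 7 introns with 13.1% of their length. Next came intron 16 with 32.0 reads per kb (interval 27.1 to 37.6), which did not overlap intron 14 at 9.08 (interval 6.08 to 13.0). Introns 2, 11, 5 and 7 followed at 5.09, 4.74, 4.09 and 3.45 reads per kb, and neighbours in this order had overlapping intervals. Among the listed introns of Ogt the reads thus stood out in 1, with intron 16 at an intermediate level.

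The introns of Mgea5 were closer to each other. Intron 10 had an observed mean of 255.0 reads, 80.2 reads per kb (interval 73.4 to 87.5), and intron 11 had 79.0 reads, 80.9 reads per kb (interval 68.8 to 94.6). The introns on either side of the 86-base exon thus had the same read density, with a ratio of 0.991, and the ratio was 0.977 in the KH-CB19 group at 0 h. In all, 313 pairs of detained introns share an exon in GENCODE, and 6 of these were closer in density than the Mgea5 pair. The median difference over the pairs was 0.51 on the log2 scale. The 4 other introns of Mgea5 had 8.81 to 32.4 reads per kb, with introns 13 and 3 (32.4 and 31.2) above intron 15 (21.2) and intron 8 (8.81). Both detained introns were about 3-fold above the median of those 4 (3.06-fold for intron 10, 3.09-fold for intron 11), a far smaller contrast than in Ogt.

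**Figure D1:**
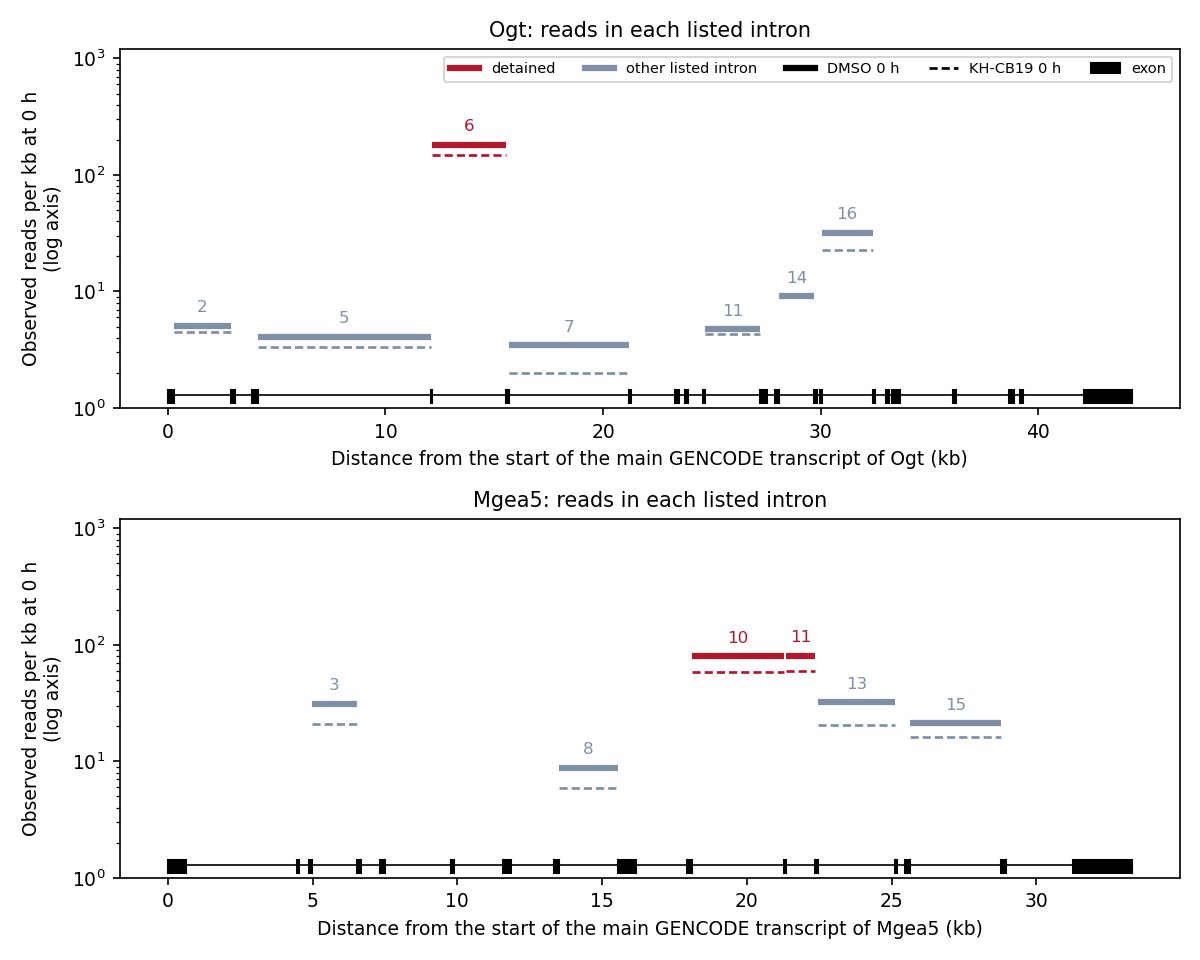
Observed reads per kb of each listed intron at 0 h (vertical log axis) against the distance from the transcript start in kb, for Ogt (top) and Mgea5 (bottom), from the authors' group means. Solid lines are DMSO and dashed lines KH-CB19, red marks detained introns, black boxes are exons of Ogt-201 and Mgea5-201, and numbers are those of the deposited table. Intron 6 of Ogt stands at 183 reads per kb above introns at 3.45 to 32.0, and introns 10 and 11 of Mgea5 lie level at 80.2 and 80.9.

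The authors set each observed mean against an expected mean and tested the difference. An intron is called here where the adjusted p in the authors' deposited table was below 0.05. In DMSO at 0 h, 3 of the 13 introns were above expectation, against 28.2% of all 21568 introns with a value, and 6 were below, against 10.9%. In KH-CB19 at 0 h, 3 of 12 were above (27.6% of all introns with a value) and 5 below (8.93%), and intron 14 of Ogt had too few reads for a value. The 3 introns above were the detained ones in both groups. If the class was drawn from these ratios, that follows from the class.

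Intron 6 of Ogt had 72.5 expected reads, 8.60-fold fewer than observed. The authors' deposited table put the log2 ratio at 3.10, with an adjusted p of 6.54e-45, rank 302 among the 3453 detained introns with a value. For intron 10 of Mgea5, with 65.5 expected reads, the authors' deposited table had a log2 value of 1.96 at an adjusted p of 7.30e-15 (rank 1472). Its neighbour intron 11 had 35.0 expected reads, and 1.17 as its log2 value by the authors' deposited table, at an adjusted p of 0.00142 (rank 3111). Introns 10 and 11, equal in density, thus stood far apart in this ratio. In each gene the expected reads grew with about the square root of intron length (exponents 0.51 for Ogt and 0.52 for Mgea5), so that a short intron was given more expected reads per kb. With expected reads shared out in proportion to length, an alternative added after the data were seen, the log2 ratio of intron 11 was 1.78, and that of intron 10 was 1.77.

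Most of the other introns of Ogt were below expectation. How expected reads were made is not known, and whether the reads of intron 6 raised them across the gene was not tested. Intron 6 of Ogt and intron 10 of Mgea5, of similar length, had 72.5 and 65.5 expected reads in DMSO. The other listed introns had medians of 4.91 reads per kb in Ogt and 26.2 in Mgea5. Introns 2, 5, 7, 11 and 14 had 12 to 32.5 observed and 48.5 to 109.5 expected reads in DMSO, and by the authors' deposited table their log2 values ran from −2.35 to −1.74, with 0.000291, for intron 14, as the largest adjusted p. With only introns of a mean of at least 50 observed reads, 0 of the 6 introns below expectation in DMSO and 0 of the 5 in KH-CB19 were left. This filter cannot judge those calls, since observed reads are low where an intron falls below expectation. With 10 added to observed and expected reads, introns 2 and 11 moved to −1.65 and −1.69. The lowest was intron 11, with 12 observed and 61.0 expected reads, and the next was intron 7, with 19 and 92.0. Intron 16 had 74.5 observed and 58.0 expected reads and did not pass (0.36 on the log2 scale at an adjusted p of 0.368, by the authors' deposited table). In Mgea5 intron 8 alone was below, with 18.0 observed and 50.5 expected reads (−1.49 on the log2 scale at an adjusted p of 0.00127, by the authors' deposited table). By the authors' deposited table, introns 3, 13 and 15 of Mgea5 stood at 0.12, 0.56 and 0.04 on the log2 scale, with adjusted p-values of 0.859, 0.114 and 0.981, and passed in neither direction. The median log2 ratio was −1.75 over the 7 introns of Ogt and 0.34 over the 6 of Mgea5, beside 0.53 over all introns with a value.

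**Figure D2:**
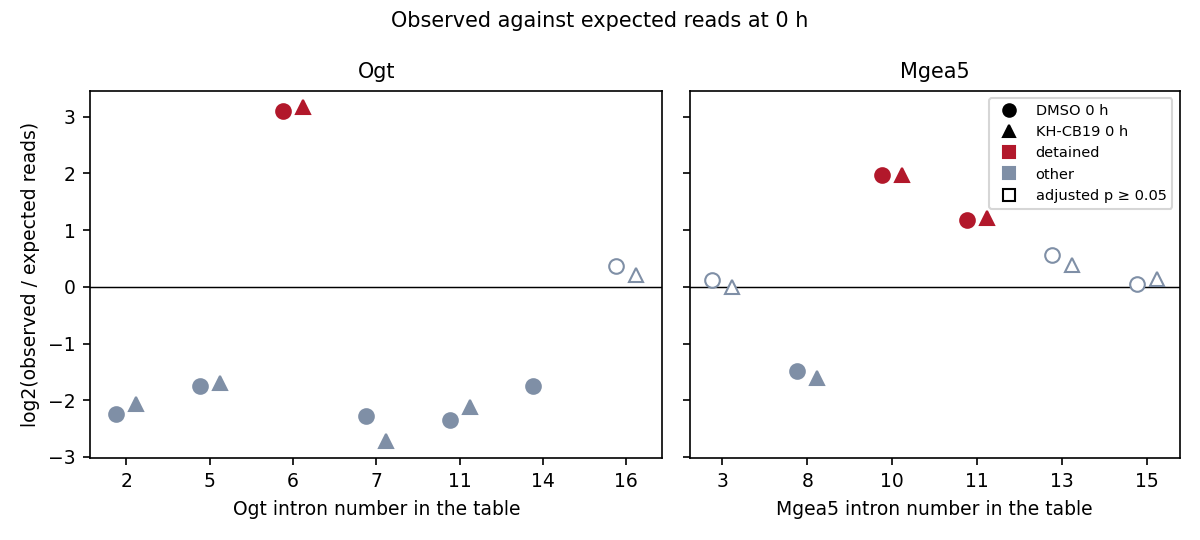
The log2 ratio of observed to expected reads at 0 h (vertical axis) of each listed intron of Ogt and Mgea5 (horizontal axis, table numbers), from the authors' deposited table. Circles are DMSO, triangles KH-CB19, red marks detained introns, and open symbols had an adjusted p of at least 0.05. The detained introns lie between 1.17 and 3.16 in both groups, and 5 introns of Ogt and 1 of Mgea5 lie below −1.4.

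The pattern was nearly the same in the KH-CB19 group harvested at 0 h. For intron 6 of Ogt the means were 511.0 observed and 57.0 expected reads, 150 reads per kb (interval 141 to 159), and the authors' deposited table put the log2 ratio at 3.16, with an adjusted p of 4.27e-41. The 5 other introns of Ogt with a value had 2.00 to 22.6 reads per kb. In Mgea5, intron 10 had 184.5 observed and 47.0 expected reads, 1.97 on the log2 scale at an adjusted p of 3.48e-12 by the authors' deposited table. For intron 11 the means were 58.0 and 25 reads, 1.21 on the log2 scale at an adjusted p of 0.00493 by the authors' deposited table. Each of the 12 introns with a value in both groups had the same call in both. Observed means were lower throughout, as they were over all 18080 introns with a value in both groups, which summed to 995181.5 reads in KH-CB19 and 1241286.5 in DMSO. Scaled to the same sum, the 12 introns had log2 ratios of KH-CB19 to DMSO from −0.47 (intron 7 of Ogt) to 0.19 (intron 11 of Ogt). All 12 lay within the central 95% of introns, −0.61 to 0.68. Every listed intron of Mgea5 was lower in KH-CB19, from −0.33 (intron 13) to −0.08 (intron 15), while those of Ogt went both ways. No test of KH-CB19 against DMSO at 0 h was possible on group means.

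After 2 h the authors' table holds values for detained introns only, as normalised means. The question was whether Clk inhibition changed the O-GlcNAc introns. All 3 had a higher mean with KH-CB19, while the median log2 ratio over all detained introns was −0.0016. Only 1 of the 3, intron 10 of Mgea5, rose past the threshold. Of all 3454 detained introns 5.47% rose and 4.17% fell. The mean of intron 10 of Mgea5 was 190 normalised reads in DMSO and 315 in KH-CB19. It was 1.66-fold higher with the drug (0.73 on the log2 scale at an adjusted p of 0.0235, by the authors' deposited table), and its response class there is "Less". The call ends at a threshold of 0.01. Intron 11 of Mgea5, on the other side of the exon, had 55.4 and 66.2 normalised reads, 1.20-fold higher, and did not pass (0.26 on the log2 scale at an adjusted p of 0.748, by the authors' deposited table). In Ogt, intron 6 had 488 and 534 normalised reads, 1.09-fold higher, and did not pass either (0.13 on the log2 scale at an adjusted p of 0.788, by the authors' deposited table). Whether the 3 introns differed in response was not tested.

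The changes called differed in size with the number of reads. Among the 57 other detained introns with a 2 h mean within 1.25-fold of that of intron 6 of Ogt, 9 passed. The smallest change that passed among them was 0.59 on the log2 scale, so the 0.13 of intron 6 was below any change called at its level, and changes of up to 0.75 did not pass. For intron 10 of Mgea5 there were 188 such introns, of which 39 passed, and changes called among them began at 0.62, under its own 0.73, while changes of up to 1.07 did not pass. Around intron 11 of Mgea5, with fewer reads, 65 of 730 passed, and the smallest called change was 0.88, above the change measured in intron 10, while the largest not called was 1.57. A change in intron 11 as large as that in intron 10 was thus smaller than any called at its level.

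**Figure D3:**
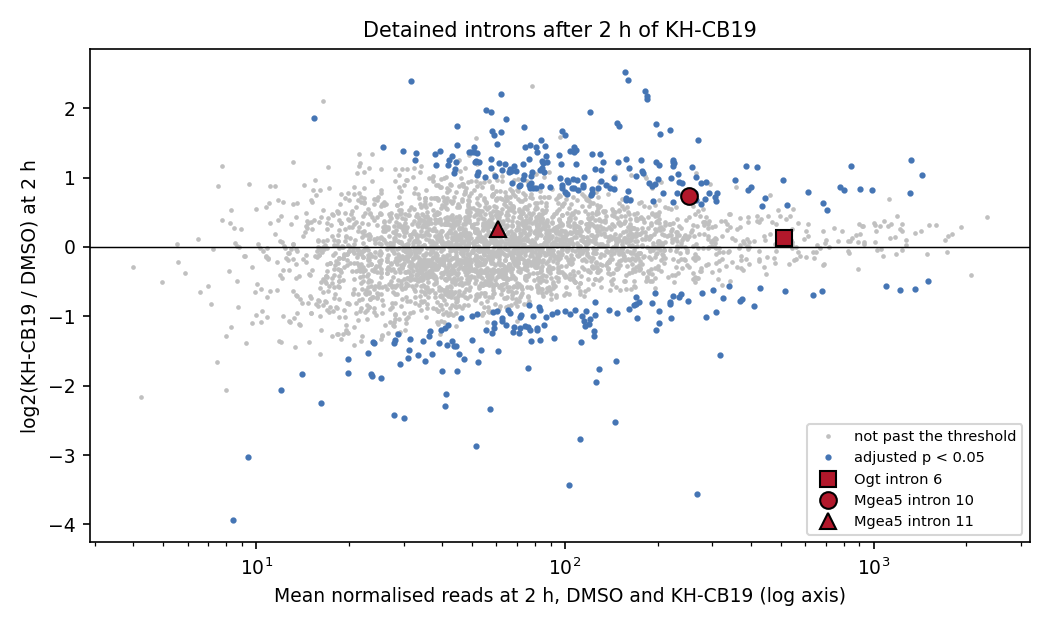
Change at 2 h as log2(KH-CB19 / DMSO) (vertical axis) against the mean of both groups in normalised reads (horizontal log axis) for the 3454 detained introns, from the authors' deposited table. Blue points had an adjusted p below 0.05, and red symbols mark the 3 introns of Ogt and Mgea5. Intron 10 of Mgea5 lies at 0.73 among the smaller of the changes called at its mean, and the other 2 lie at 0.13 and 0.26 among introns not called.

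The densities of introns 10 and 11 of Mgea5 were furthest apart in the drug group at 2 h, a difference that was not tested. With DMSO at 2 h they had 59.8 and 56.8 normalised reads per kb, a ratio of 1.05, close to the 0 h ratios of 0.991 and 0.977. With KH-CB19 at 2 h they had 99.0 and 67.9, a ratio of 1.46. Among the 313 pairs of detained introns that share an exon, 13 had both introns called, 44 had 1, as in Mgea5, and 256 had none. The difference in log2 ratio between the introns of a pair had a median of 0.36, and 117 pairs differed by more than Mgea5.

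To set 0 h beside 2 h, each mean was also given per 100000 reads of the 3422 detained introns with values in all 4 groups. On this scale intron 6 of Ogt had 136 in DMSO and 141 in KH-CB19 at 0 h, and 132 and 136 at 2 h. The values of intron 10 of Mgea5 were 55.7 and 50.9 at 0 h, 51.5 in DMSO at 2 h and 80.3 in KH-CB19 at 2 h. For intron 11 the values were 17.3, 16.0, 15.0 and 16.9. Intron 10 was thus high in 1 group, KH-CB19 at 2 h, and the other 2 introns had levels in that group within the range of the other 3 groups.

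**Figure D4:**
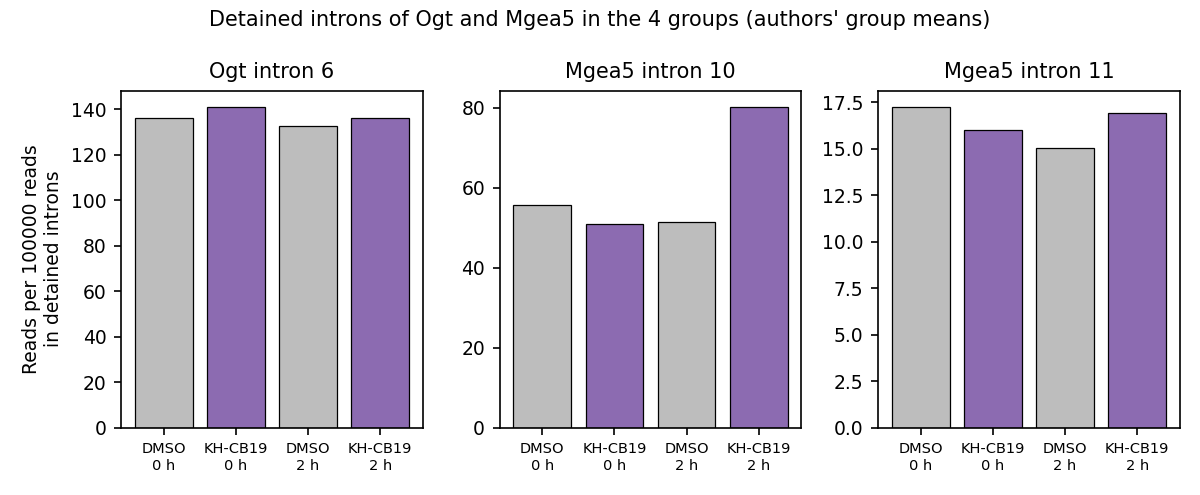
Reads per 100000 reads in detained introns (vertical axes from 0, 1 scale per panel) in the 4 groups, for intron 6 of Ogt and introns 10 and 11 of Mgea5. Each bar is the authors' mean of 2 libraries rescaled here, with no error, grey for DMSO and purple for KH-CB19. Intron 10 of Mgea5 reaches 80.3 in KH-CB19 at 2 h against 50.9 to 55.7 elsewhere.

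Introns with the most similar values were found by distance over 3 log2 ratios (observed to expected in each group at 0 h, and KH-CB19 to DMSO at 2 h), among 2115 detained introns of other genes with a mean of at least 50 reads. Nearest to intron 6 of Ogt were intron 22 of Celf1, which encodes an RNA-binding splicing regulator, intron 19 of Trap1, a mitochondrial chaperone, and intron 32 of Map4k4, a kinase, at distances of 0.08, 0.11 and 0.14. Nearest to intron 10 of Mgea5 were intron 5 of Mdh2, a mitochondrial malate dehydrogenase, intron 6 of Tmem161b, and intron 14 of Mcm5, a replication helicase subunit, at 0.07, 0.07 and 0.11. By the authors' deposited table, the introns of Tmem161b and Mcm5 were called higher at 2 h (0.78 and 0.82 on the log2 scale, adjusted p = 0.00988 and 0.00103) and that of Mdh2 was not (0.75, adjusted p = 0.101). For intron 11 of Mgea5 they were intron 7 of Bcas2, a spliceosome component, intron 5 of the noncoding RNA Meg3, and intron 6 of Mcts1, at 0.02, 0.06 and 0.07. The distances describe 3 values made from group means, and nothing else that these introns share.

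Among the enzymes that make and handle UDP-GlcNAc, the donor for Ogt, 4 of 35 listed introns were detained, beside 15.5% of all introns. Of 18 genes in the list, 13 had a listed intron and 2 a detained one, Gfpt2 and Gpi1. At 0 h in DMSO 7 of its 33 introns with a value were above expectation and 5 below, beside 28.2% and 10.9% of all introns, with a median log2 ratio of 0.29 beside 0.53. Gfpt2 encodes an amidotransferase of the first committed step, and by the authors' deposited table its introns 17, 18 and 14 stood at −0.92, −0.42 and −0.32 on the log2 scale at 2 h (adjusted p = 0.120, 0.628 and 0.749). Intron 9 of Gpi1, a glucose phosphate isomerase upstream of the pathway, had 1260 and 1280 normalised reads in DMSO and KH-CB19. Of these 4 introns 0 passed by the authors' adjusted p, and unadjusted values were not used here. Their median log2 ratio was −0.37, beside 0.00 over all detained introns.

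Among 12 other glycosyltransferase genes, 6 had a listed intron and 2 a detained one, and 8 of 21 introns were above and 4 below expectation at 0 h in DMSO (median log2 ratio 0.76), again beside 28.2% and 10.9% of all introns and a median of 0.53. Alg13 encodes part of an enzyme that adds GlcNAc to the lipid-linked precursor of N-glycans. Its intron 12 rose 1.85-fold at 2 h (68.8 to 127 normalised reads, adjusted p = 0.0167 in the authors' deposited table). The other 3 detained introns of Alg13 (5, 9 and 31) and those of Poglut1, an O-glucosyltransferase, did not pass. Over the 6 detained introns of this list 1 rose and 0 fell, beside 5.47% and 4.17% of all detained introns, and the median log2 ratio was 0.04.

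Of 24 well-known partners and substrates of the O-GlcNAc transferase, 21 had a listed intron. At 0 h in DMSO 35 of 112 introns with a value were above expectation and 12 below (median log2 ratio 0.44), close to the 28.2% and 10.9% of all introns. Of their 116 listed introns 21 were detained, in 15 of the genes, beside 15.5% of all introns. At 2 h 0 of the 21 rose and 2 fell, beside 5.47% and 4.17% of all detained introns. Intron 29 of Hcfc1, whose protein the transferase cleaves, fell from 60.1 to 22.6 normalised reads (−1.41 on the log2 scale at an adjusted p of 0.00518, by the authors' deposited table). Intron 23 of Nup153, a nuclear pore protein rich in O-GlcNAc, fell from 119 to 46.7 (−1.35 at an adjusted p of 0.000225, by the authors' deposited table). Introns 25 and 27 of Nup153, intron 17 of Ezh2, a histone methyltransferase, and intron 33 of Nup214 were at −0.96, 0.59, −0.94 and 0.49 by the authors' deposited table, with adjusted p-values of 0.0788, 0.137, 0.182 and 0.250, and did not pass. The median log2 ratio of the 21 was −0.38.

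Of 16 markers of embryonic stem cells 15 had a listed intron, with 15741.0 summed observed reads in 50 introns in DMSO at 0 h. Intron 3 of Dppa5a alone held 2571 of these reads. Of 10 fibroblast markers only Fn1 had one, with 3265.5 reads in 14 introns, and of 12 markers of differentiated cells and trophoblast 0 had one. The sums cover unlike numbers of genes and introns. Being listed is not a measure of expression, so a marker without a listed intron is not shown to be absent. At 2 h 1 of 8 detained introns of the stem cell list rose, intron 16 of Tfcp2l1, and 1 of 5 in Fn1 fell, intron 34. RNA integrity numbers of the 8 libraries ran from 8.8 to 9.4. The lowest belonged to a KH-CB19 library at 2 h, the group in which intron 10 of Mgea5 was high, and its part in that result was not tested.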

How the data were processed

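Poly(A) RNA was sequenced by strand-specific, paired-end RNA-seq. The submitters' processing notes name, on build mm9, TopHat2 2.0.9 with Bowtie 1.0.0 listed beside it, Cufflinks 2.1.1, bedtools 2.17.0, SAMtools 0.1.19, and DESeq with no version. How expected reads were made is not given in the sources used here. Per the file headers, the authors deposited, for each intron, mean observed and expected read counts at 0 h, a normalised mean count (a signal) at 2 h for detained introns, log2 ratios and adjusted p-values. No column holds single libraries, so the planned edgeR fit gave way to the authors' own adjusted p-values, which were taken as deposited with no new test across introns. The 2 libraries of a group are described as independent biological replicates. The 0 h means are multiples of 0.5, as means of 2 whole counts are, and depth of whole libraries is unknown.

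Python 3.11.15 with pandas 2.3.3, numpy 2.4.6, scipy 1.17.1 and matplotlib 3.10.9 was used to compute reads per kb, Poisson intervals, ratios and distances. The code was tested on simulated data. Introns were matched to GENCODE M21 by gene and exact length (19079 of 22228 matched once), and no coordinates were converted. The named introns are all members that were detained or past 0.05, and the 3 nearest patterns for each detained one. For each list of enzymes or partners they are those past 0.05 at 2 h and up to 4 others with the smallest adjusted p. For the marker lists they are those past 0.05 at 2 h, and intron 3 of Dppa5a for its reads. Members, lists and rules were chosen with earlier results of these data known.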

Additional observations from a re-analysis of the deposited data

How the results depend on the processing

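No paired analysis was possible because the values are group means. For the same reason leaving out each library, the replicate block and DESeq2 were not run. The splice site matrix was not run, as no genome of the build was used. The listed introns of each gene do not overlap, so the other intron length changes nothing. At a threshold of 0.01 intron 10 of Mgea5 (log2 ratio 0.73, adjusted p = 0.0235) was no longer called, which leaves 0 introns higher at 2 h, and every 0 h call of the members held. With a mean of at least 50 observed reads, 0 introns were left below expectation in either 0 h group. With a pseudocount of 10 the log2 ratios of observed to expected in Ogt were −1.65 (intron 2) and −1.69 (intron 11) in DMSO and −1.46 (intron 2), −1.97 (intron 7) and −1.47 (intron 11) in KH-CB19. With expected reads in proportion to length, chosen after seeing the data, they were −1.10 for intron 14 of Ogt, and for intron 11 of Mgea5 1.78 in DMSO and 1.82 in KH-CB19. Scaled to the DMSO sum, KH-CB19 reads per kb at 0 h were 187 and 28.1 for introns 6 and 16 of Ogt, and 72.4, 74.1, 25.7 and 20.1 for introns 10, 11, 13 and 15 of Mgea5. The other 124 recomputed values moved by less than 1.5-fold or stayed within counting error. Intron 15 of Mgea5, not called, changed sign with length in proportion (−0.15 in DMSO, −0.07 in KH-CB19). The introns below expectation all had observed means under 50 reads. A filter on observed reads removes them for being low, so it could not judge their calls.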

Other observations

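Intron 16 of Ogt was second in read density among the 7 listed introns of the gene, at 32.0 reads per kb in DMSO at 0 h, at percentile 68.7 of all listed introns, yet it passed no test against expectation. Introns 13 and 3 of Mgea5 were at the same density (32.4 and 31.2 reads per kb). These 3 introns have no 2 h value, so their response to KH-CB19 was not measured.

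Expected reads rose with intron length to the power 0.60 over all genes with at least 4 introns with a value in DMSO, and 0.51 and 0.52 in Ogt and Mgea5.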
